A study of Mus musculus with 22 samples.

Results

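The Iroquois homeobox genes Irx1, Irx2, Irx3, Irx4, Irx5 and Irx6 were followed through 22 chromatin profiling libraries of mouse embryonic stem cells (ESC) and the neural progenitor cells (NPC) made from them. They were taken by symbol, and each had 1 window, so 6 of the 24467 windows of the deposited table are described. CUT&RUN was used, in which an antibody guides a nuclease to a protein or histone mark and the released DNA is sequenced. The antibodies were against SUZ12, JARID2, MTF2, H3K27me3 and H3K4me3, with 2 libraries per antibody and cell type, called biological replicates by the submitters, and 1 control library with IgG, an antibody without a chromatin target, in each cell type. All libraries carried the same labels for strain (C57BL/6), genotype (untagged, Tir1) and treatment (untreated), and the ESC line came from ATCC. NPC were grown without the ESC supplements, with 72 h of bFGF at 10 ng/mL followed by SAG, a small-molecule agonist of the Hedgehog receptor component Smoothened, at 500 nM for 48 h. ESC were kept in LIF at 100 U/mL with CHIR99021 at 3 µM and PD0325901 at 1 µM, inhibitors of the kinases GSK3 and MEK. The genotype label shows that every group, ESC included, carried Tir1, the plant F-box protein used for auxin-induced degradation. NPC were cultured cells of a single line at a single time point, and the labels do not say from how many clones or differentiations they came.

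Iroquois proteins are transcription factors of the TALE class, whose homeodomain carries an extra loop, and they pattern the neural plate, heart, limb and retina in vertebrates. In the neural tube Irx3 is expressed in dorsal and intermediate progenitors and is repressed ventrally under Hedgehog signalling, where its boundary with Olig2 is kept by cross-repression. In pluripotent cells many such developmental regulators are held by the Polycomb complex PRC2, of which SUZ12 is a core subunit, MTF2 and JARID2 are accessory subunits of alternative forms, and H3K27me3 is the product. H3K4me3 marks active and poised promoters, and promoters that carry H3K4me3 and H3K27me3 together are called bivalent.

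The 6 genes lie in 2 clusters of 3 genes each. Irx1, Irx2 and Irx4 are on chromosome 13, with transcription start sites (TSS) spread over 1296.773 kb, and Irx3, Irx5 and Irx6 are on chromosome 8, spread over 872.634 kb. The windows were 5000 bp long and centred on the TSS in mm10, so levels of different members are compared over equal lengths. They spanned chr13:71961224-71966223 for Irx1, chr13:72626297-72631296 for Irx2, chr13:73257997-73262996 for Irx4, chr8:91799155-91804154 for Irx3, chr8:92355296-92360295 for Irx5 and chr8:92671789-92676788 for Irx6. Each therefore holds the promoter, the 5′ end of the transcribed region and sequence upstream of it. The Irx2 window shared 4768 bp with that of the predicted gene Gm20554 and the Irx5 window 3325 bp with that of Crnde, a non-coding RNA gene, so reads of these pairs cannot be told apart. The other 4 members had no overlapping window.

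RefSeq promoters (GRCm38.p6) were at hand for Irx2, Irx3 and Irx4, and the 250 bases before the start site of that table are shown because they lie in the windows over which the H3K4me3 and H3K27me3 values below were counted. For Irx2 that start site differs from the TSS on which its window is centred, and the stretch runs a little past the window's centre. Capitals mark CpG, the dinucleotide CG, which reads the same on both strands and whose density distinguishes the promoters that Polycomb complexes and H3K4 methyltransferases occupy in mammals. They are given 5′ to 3′ on the strand of the gene, with Irx2 at chr13:72628570-72628819 (plus strand), Irx4 at chr13:73260247-73260496 (plus strand) and Irx3 at chr8:91801655-91801904 (minus strand).
Irx2: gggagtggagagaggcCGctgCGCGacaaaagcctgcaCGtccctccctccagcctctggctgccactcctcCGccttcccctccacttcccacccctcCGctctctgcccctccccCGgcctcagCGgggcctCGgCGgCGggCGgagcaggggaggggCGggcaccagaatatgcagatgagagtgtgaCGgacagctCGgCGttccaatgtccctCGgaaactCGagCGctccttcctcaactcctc
Irx4: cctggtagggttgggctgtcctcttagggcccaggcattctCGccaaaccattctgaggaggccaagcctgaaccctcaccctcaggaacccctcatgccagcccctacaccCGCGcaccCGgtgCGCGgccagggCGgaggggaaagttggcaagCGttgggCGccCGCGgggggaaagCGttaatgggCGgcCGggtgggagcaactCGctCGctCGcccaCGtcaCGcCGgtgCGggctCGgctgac
Irx3: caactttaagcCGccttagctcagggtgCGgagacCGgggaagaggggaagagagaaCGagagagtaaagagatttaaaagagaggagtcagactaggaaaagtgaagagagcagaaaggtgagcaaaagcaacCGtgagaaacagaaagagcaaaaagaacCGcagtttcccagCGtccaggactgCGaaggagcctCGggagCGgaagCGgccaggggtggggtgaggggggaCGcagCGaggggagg
The Irx4 stretch held 22 CpG, that of Irx2 held 19 and that of Irx3 held 13, against a median of 6 over 32851 mouse promoters of this length. At least as many CpG were found in 14.8% of all promoters for Irx4, in 19.7% for Irx2 and in 31.5% for Irx3. Their GC content was 68.8% at Irx4, 68.4% at Irx2 and 56.0% at Irx3, with a median of 52.4% over all.

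The values are raw read counts per window, and levels are counts per 1e6 counts of the library over all windows (CPM), without further scaling. Total counts ran from 448667 to 857691 for SUZ12, 339591 to 492529 for JARID2, 439379 to 832117 for MTF2, 647615 to 1569812 for H3K27me3 and 3264267 to 8425292 for H3K4me3, and were 667898 in the NPC and 298458 in the ESC IgG library. A count of 3 then stands for 0.356 CPM in the deepest and 10.05 CPM in the shallowest library, a floor that covers counting error only because PCR copies are not independent molecules. Changes between cell types were tested with edgeR's quasi-likelihood test on the 4 libraries of an antibody, after TMM scaling, which sets the typical window to no change, and calls were made below 0.05 after Benjamini-Hochberg adjustment over all windows tested. They are log2 of NPC over ESC, each with its standard error (SE), and because of the scaling they need not equal the ratio of the CPM. The cell type labels were checked with H3K4me3 at marker genes. Of 8 ESC markers 7 fell and none rose, and their summed level was 229.8 to 234 CPM in the NPC libraries, against 1474 to 1529 CPM in the ESC libraries. Of 8 NPC markers 7 rose and none fell, with sums of 1088 to 1128 CPM in NPC and 284 to 309 CPM in ESC. Among genes of other cell types, 4 of 5 neuron markers rose and 1 fell, with sums of 223 to 242 CPM in NPC and 135 to 136 CPM in ESC. Of 4 mesoderm markers 1 rose and 2 fell (105 to 117 CPM in NPC and 116 to 123 CPM in ESC), and of 3 endoderm markers 2 fell (75.4 CPM in both NPC libraries and 100.2 to 110.1 CPM in ESC). No marker was at 0 in all libraries of a cell type, and the part of these cells in the results below was not tested.

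SUZ12, the core PRC2 subunit, fell at all 6 Iroquois genes in NPC, most at Irx5 and Irx3. Irx5, which with Irx3 patterns limb and heart in the mouse, had 112 and 136 CPM in the NPC libraries, against 609.8 and 602 CPM in the ESC libraries. Irx3, the neural tube patterning gene, had 124 and 123 CPM in NPC and 428 and 409 CPM in ESC. Irx6, a gene of retinal bipolar cells in the mouse, had 62.2 and 55.7 CPM in NPC and 117 and 107 CPM in ESC. Both NPC libraries lay far under both ESC libraries at Irx3 and Irx5, while at Irx6 the gap was the smallest of the family. In the chromosome 13 cluster, Irx1, which acts in neural, lung and limb patterning, had 109 and 93.6 CPM in NPC against 269 and 226 CPM in ESC. Irx2, its neighbour with a largely similar expression pattern, had 116 and 98.1 CPM in NPC and 246 and 233 CPM in ESC. Irx4, known for the identity of the heart ventricle, had 55.8 and 57.9 CPM in NPC and 164 and 148 CPM in ESC. The NPC and ESC ranges did not overlap at any of the 6.

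By edgeR's test the SUZ12 change was -2.54 ± 0.235 (SE) at Irx5 (adjusted p = 5.73e-24) and -2.01 ± 0.227 at Irx3 (2.39e-16). It was -1.72 ± 0.244 at Irx4 (1.43e-10), -1.55 ± 0.226 at Irx1 (4.17e-10), -1.42 ± 0.224 at Irx2 (1.08e-08) and -1.18 ± 0.243 at Irx6 (2.26e-05). Thus 6 of 6 fell, where 13.1% of all 21238 tested windows fell and 2.97% rose (16.1% in either direction), and the members' median change was -1.63 beside 0.07 over all windows. Each of the 6 was also called without any 1 of the 4 libraries. With a minimum count of 30, 5 members fell, where 19.7% of the 3696 windows kept fell and 24.0% rose. The changes shrank, to -1.71 at Irx5, -1.18 at Irx3, -0.88 at Irx4, -0.72 at Irx1 and -0.58 at Irx2. Irx6 was no longer called (-0.35, adjusted p = 0.217). Drosophila DNA was added as a spike-in but no spike-in count was used here, so a change shared by all windows was not measured, and in a mixed culture less signal per cell cannot be told apart from fewer cells with it. Scaled to library totals, 11.3% of windows rose and 9.56% fell, and all 6 members still fell. DESeq2 also called all 6 lower, where 43.5% of its 4033 windows fell and 0.273% rose. The top 1% of windows took 10.5% and 9.24% of the reads in the ESC libraries, and 4.94% and 5.05% in NPC. Strongly bound windows thus held a smaller share in NPC, and the part of this in the members' falls was not tested.

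The order of the SUZ12 levels was also more even in NPC. In ESC it ran from Irx5 (606 ± 5.81 CPM, SD, n = 2) through Irx3 (418 ± 13.3), Irx1 (248 ± 30.8), Irx2 (239.6 ± 9.04) and Irx4 (156 ± 11.5) to Irx6 (112 ± 6.53), and only Irx1 and Irx2 overlapped as neighbours in this order. In NPC the values were 124 ± 17.2 CPM for Irx5, 124 ± 1.35 for Irx3, 107 ± 12.6 for Irx2, 102 ± 11.2 for Irx1, 59.0 ± 4.61 for Irx6 and 56.9 ± 1.51 for Irx4. There Irx5 and Irx3 overlapped, Irx2 and Irx1 overlapped, and Irx6 and Irx4 overlapped. No background was taken off these levels. IgG in NPC stood at 53.9 CPM at Irx5, 46.4 CPM at Irx6 and 35.9 CPM at Irx4, so the last 2 were near it. The part of background in the more even levels was not tested. Among all 24467 windows ranked by mean CPM, the Irx5 window stood in the top 0.0654% for SUZ12 in ESC and in the top 0.993% in NPC. Irx3 was in the top 0.343% in ESC and 0.997% in NPC, and Irx4 in the top 2.55% in ESC and 12.7% in NPC.

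**Figure D1:**
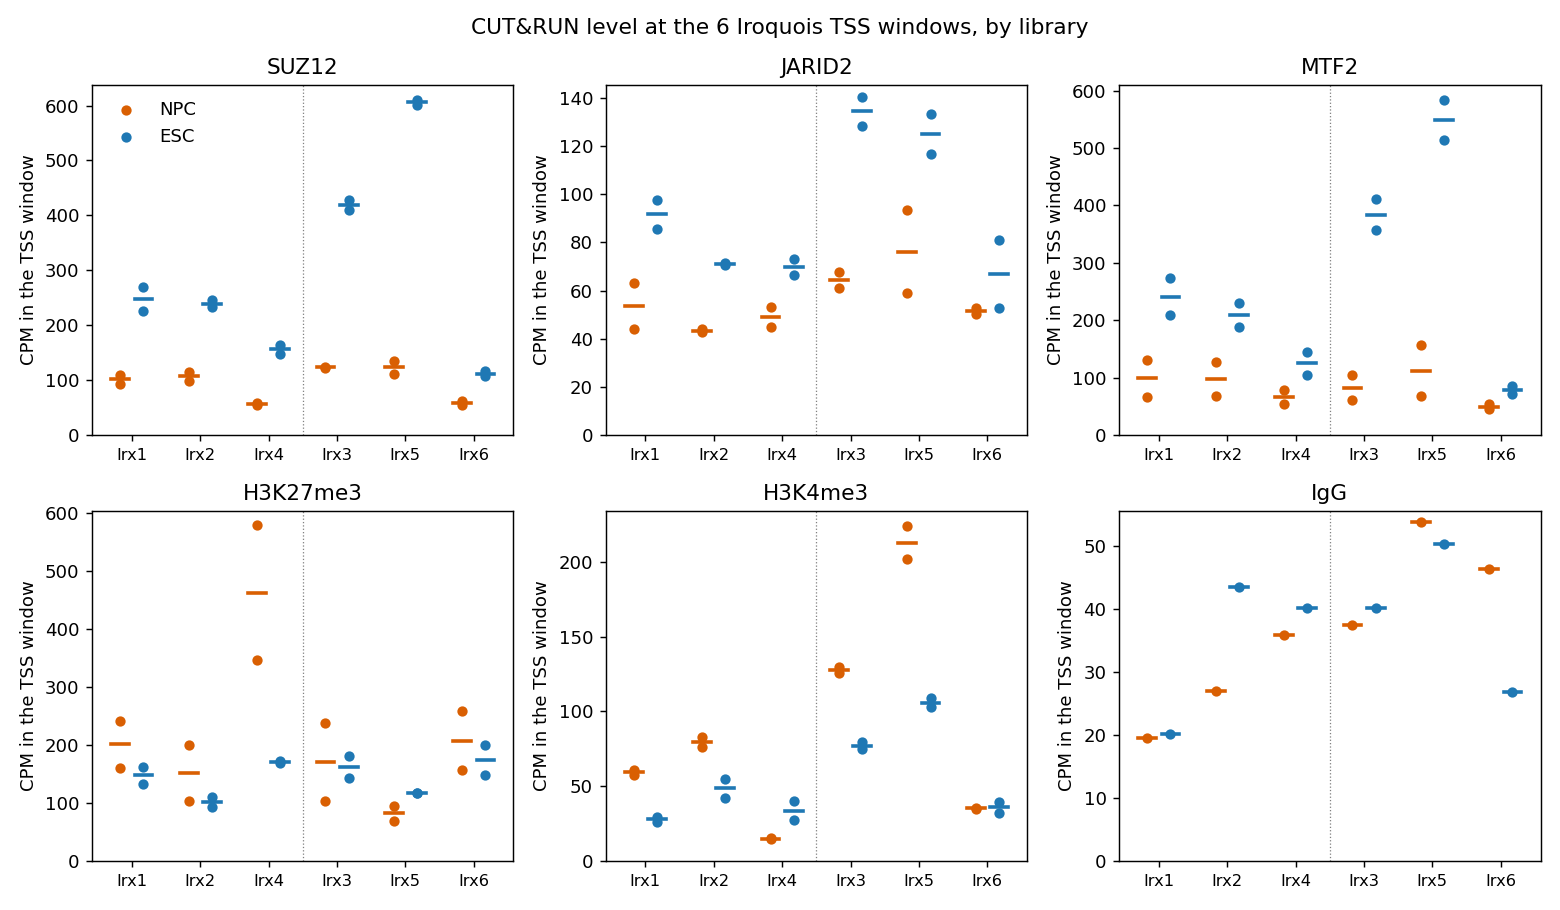
CPM in the 5000 bp TSS window of each Iroquois gene (x axis) for each antibody and IgG, 1 point per library (NPC orange, left; ESC blue, right), with bars at the mean and a dotted line between the clusters. SUZ12 at Irx5 sits at 112 and 136 CPM in NPC and at 609.8 and 602 CPM in ESC, and H3K27me3 at Irx4 at 347 and 579 CPM in NPC and at 173 and 169.9 CPM in ESC.

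MTF2, the accessory subunit of the PRC2 form that binds CpG-rich DNA, had lower levels in NPC at all 6 genes, with 3 of them passing the test. At Irx5 it had 68.3 and 157 CPM in NPC, against 583 and 514 CPM in ESC. At Irx3 it had 61.5 and 104 CPM in NPC and 411 and 357 CPM in ESC, and at Irx6 45.5 and 54.1 CPM in NPC and 86.5 and 71.0 CPM in ESC. The 2 NPC libraries stood wide apart, replicate 2 being the higher at every member. On chromosome 13, MTF2 had 66.0 and 132 CPM in NPC and 274 and 209 CPM in ESC at Irx1, and 68.3 and 128 CPM in NPC and 231 and 188 CPM in ESC at Irx2. It had 54.6 and 79.3 CPM in NPC against 145 and 104 CPM in ESC at Irx4. The ranges of the cell types did not overlap at any member. Irx3 fell by 2.47 ± 0.896 (SE, adjusted p = 0.0488), Irx4 by 1.18 ± 0.429 (0.0484) and Irx6 by 0.95 ± 0.342 (0.0466), all on the log2 scale. The changes were -2.54 ± 1.15 at Irx5 (0.128), -1.56 ± 0.674 at Irx1 (0.107) and -1.36 ± 0.618 at Irx2 (0.127).

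Of all 20885 windows tested for MTF2, 8.89% fell, against 3 of the 6 members. That count hangs on single libraries and moved when any 1 of the 4 was left out. Without replicate 1 of either cell type the share of all windows that fell dropped as well. Without ESC replicate 2 that share did not drop, while fewer members were called. Without NPC replicate 2 it dropped, while more members were called. DESeq2 called 5 (all but Irx6), where 28.8% of its 5441 windows fell. A fit without a filter on low counts called 1, where 7.71% of 24237 windows fell. One with a minimum count of 30 also called 1, where 9.68% of 3915 windows fell. With library totals 2 were called, where 10.1% of all windows rose and 6.89% fell, beside 3.28% and 8.89% with TMM.

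JARID2, the accessory subunit of the other PRC2 form, fell at Irx3 and was not called elsewhere. At Irx3 it had 60.9 and 67.7 CPM in NPC, against 128 and 140.4 CPM in ESC. At Irx5 it had 93.4 and 58.9 CPM in NPC and 133 and 117 CPM in ESC, and at Irx6 52.8 and 50.1 CPM in NPC and 52.8 and 80.9 CPM in ESC. The Irx3 ranges were well apart, those of Irx5 were apart too, and those of Irx6 all but met, at 52.79 CPM in NPC and 52.84 CPM in ESC. At Irx1 JARID2 had 62.9 and 44.2 CPM in NPC and 85.5 and 97.5 CPM in ESC, at Irx2 42.6 and 44.2 CPM in NPC and 70.4 and 71.4 CPM in ESC, and at Irx4 44.7 and 53.0 CPM in NPC and 73.0 and 66.6 CPM in ESC. These rest on 15 to 41 counts per library. Irx3 changed by -1.10 ± 0.251 (SE, adjusted p = 0.00543), where 0.750% of 21456 windows fell and 0.0792% rose (0.830% in either direction). The other 5 had changes of -0.75 ± 0.276 at Irx1 (0.265), -0.73 ± 0.300 at Irx2 (0.373), -0.68 ± 0.246 at Irx5 (0.255), -0.56 ± 0.296 at Irx4 (0.577) and -0.40 ± 0.296 at Irx6 (0.737). The call at Irx3 was lost without ESC replicate 1 (adjusted p = 0.0553), without ESC replicate 2 (0.198) and without NPC replicate 1 (0.180). In chi-square per degree of freedom, where sampling noise alone gives 1, the pair of NPC libraries of JARID2 differed by 0.998 and the ESC pair by 1.02. They were kept as 2 replicates, and counted as 1 they also gave 1 called member.

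Whether MTF2 and JARID2 changed by different amounts was tested as an interaction over 8 libraries. At none of the 6 did the changes differ by the test (edgeR, with 3.44% of 22654 windows called, 2.78% above 0 and 0.662% below), and at an unadjusted p below 0.05 Irx5 alone did. There the JARID2 change was 1.88 ± 0.941 (SE) above that of MTF2 on the log2 scale (adjusted p = 0.244). DESeq2 also called 0 of the 6. The edgeR count moved without NPC MTF2 replicate 2, a fit that leaves 1 NPC library of MTF2. The share of all windows called was not taken in these alternative fits.

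The antibody signals were set against IgG of the same cell type in 1 fit of all 22 libraries, and called at an adjusted p below 0.05 and a log2 ratio of at least 1. IgG ran from 19.5 CPM at Irx1 to 53.9 CPM at Irx5 in NPC and from 20.1 CPM at Irx1 to 50.3 CPM at Irx5 in ESC. It differed most at Irx6, with 46.4 CPM in NPC and 26.8 CPM in ESC, and at Irx2, with 26.95 CPM in NPC and 43.6 CPM in ESC. These levels are 13 to 36 counts in the NPC library and 6 to 15 in the ESC library, and its spread was borrowed from the other groups. SUZ12 was above IgG at 0 of 6 members in NPC and at 6 of 6 in ESC. The NPC log2 ratios were 2.46 at Irx1, 2.07 at Irx2, 1.80 at Irx3, 1.28 at Irx5, 0.74 at Irx4 and 0.43 at Irx6. No window of 23836 was called there (0.00%), and an unadjusted p below 0.05 was reached by Irx1, Irx2 and Irx3, beside 2.63% of all windows on that side. The ESC ratios were 2.31 at Irx4 to 3.97 at Irx1 (background 5.67%). MTF2 likewise was above IgG at 0 of 6 in NPC, with 2 members under an unadjusted p of 0.05 (Irx1 at 2.45 and Irx2 at 1.97, beside 3.41% of all windows; background after adjustment 0.00%), and at 6 of 6 in ESC, with ratios of 2.00 at Irx6 to 4.02 at Irx1 (background 9.10%). JARID2 was called at 0 of 6 in NPC and at 0 of 6 in ESC (background 0.00% in both), where an unadjusted p below 0.05 was reached by 1 member in NPC (1.20% of all windows were higher at that level) and 3 in ESC (2.37%). DESeq2 was not run for the comparisons with IgG. For the alternative counts that follow, the share of all windows called was not taken, so they cannot be set against it. Fitted with IgG only, SUZ12 was called at 3 members in NPC and JARID2 at 3 in ESC, and with library totals SUZ12 and MTF2 were called at 2 each in NPC. Left out in turn, replicate 1 in ESC took the SUZ12 and the MTF2 count to 4 each.

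H3K27me3, the product of PRC2, was above IgG at 5 of 6 members in NPC (background 15.1% of windows) and at 6 of 6 in ESC (background 22.5%). In a fit of H3K27me3 with IgG only, 6 libraries, 1 member was called in NPC and 1 in ESC. The share of all windows called in that fit was not taken. Irx4 had the highest ratio in NPC, 4.76 ± 0.660 (SE, adjusted p = 1.43e-07), before Irx1 (4.42), Irx2 (3.59), Irx3 (3.32) and Irx6 (3.24), and Irx5 was not called at 1.64 ± 0.684 (0.103). In ESC the ratios ran from 1.82 at both Irx2 and Irx5 to 3.48 at Irx1.

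By library, Irx4 had 347 and 579 CPM of H3K27me3 in NPC, against 173 and 169.9 CPM in ESC. Irx1 had 161 and 242 CPM in NPC and 163 and 133 CPM in ESC, and Irx2 had 104 and 199 CPM in NPC and 93.2 and 111 CPM in ESC. Irx4 alone stood clear of both ESC libraries in both NPC libraries, while Irx1 and Irx2 overlapped. In the chromosome 8 cluster Irx3 had 104 and 239 CPM in NPC and 143 and 181 CPM in ESC. Irx6 had 156 and 259 CPM in NPC and 199.9 and 148 CPM in ESC. Irx5 had 69.8 and 94.3 CPM in NPC and 117 and 117 CPM in ESC, the single member whose NPC values were both below ESC. None of the 6 passed edgeR's test in either direction (22.9% of 21863 windows rose and 23.5% fell), and none had an unadjusted p below 0.05. The changes were 1.74 ± 1.03 at Irx4 (adjusted p = 0.153), 0.90 ± 0.631 at Irx2 (0.232), 0.73 ± 0.738 at Irx1 (0.421), 0.55 ± 0.768 at Irx6 (0.570), 0.44 ± 0.722 at Irx3 (0.632) and -0.24 ± 0.523 at Irx5 (0.724).

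The 2 NPC libraries of H3K27me3 stood apart from each other. The top 1% of windows took 11.04% of the reads of replicate 1 and 19.6% of those of replicate 2, and the chi-square between the pair was 6.67 per degree of freedom, where sampling noise gives 1. Without NPC replicate 1, the edgeR changes were 2.27 at Irx4, 1.49 at Irx2, 1.21 at Irx1, 1.10 at Irx3 and 1.07 at Irx6. Without NPC replicate 2 they were 0.76 at Irx4, -0.21 at Irx2, -0.15 at Irx1, -0.87 at Irx3, -0.43 at Irx6 and -1.001 at Irx5. Each of these fits rests on 1 NPC library. A rise at Irx4 was called by DESeq2 (1.60, adjusted p = 0.0159), where 8.46% of 11096 windows rose and 25.0% fell. It was also called by edgeR with library totals (1.44, 0.0105), a scaling under which 7.67% of all windows rose and 21.6% fell. With a minimum count of 30, 5 were called higher (Irx4 2.32, Irx2 1.47, Irx1 1.33, Irx6 1.14 and Irx3 0.99), where 28.0% of 9329 windows rose.

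H3K4me3 rose at 4 members in NPC, fell at 1, Irx4, and was not called at Irx6. Irx5 had 224 and 202 CPM in NPC, against 109 and 103 CPM in ESC, and Irx3 had 129.9 and 126 CPM in NPC and 79.3 and 74.8 CPM in ESC. Irx1 had 61.0 and 57.3 CPM in NPC and 29.4 and 26.2 CPM in ESC, and Irx2 had 76.0 and 83.0 CPM in NPC and 54.7 and 42.2 CPM in ESC. At these 4 genes every NPC library was above every ESC library. Irx4 ran the other way, with 15.3 and 14.4 CPM in NPC and 39.9 and 27.1 CPM in ESC. These levels were called above IgG in neither cell type (log2 ratio of 0.59 in ESC and -0.35 in NPC), so the fall lies near background. Irx6 had 35.5 and 34.9 CPM in NPC, inside the 39.2 and 32.3 CPM of ESC. The rise was 1.03 ± 0.108 (SE) at Irx1 (edgeR, adjusted p = 1.77e-20), 0.97 ± 0.0829 at Irx5 (3.45e-30), 0.70 ± 0.0849 at Irx3 (1.77e-15) and 0.67 ± 0.0914 at Irx2 (1.12e-12). Irx4 fell by 1.26 ± 0.149 (1.99e-16), and Irx6 changed by -0.08 ± 0.116 (0.613). The background was high for this mark, 26.7% of 19776 windows rising and 29.2% falling (55.9% in either direction), so the counts alone say little. The median of all windows was -0.02. No left-out library and no other scaling, filter or tool moved any of the 5 calls, except that Irx2 and Irx5 were not tested among non-overlapping windows.

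The H3K4me3 levels had the same leading order in both cell types. In NPC it was Irx5 (213 ± 15.4 CPM, SD, n = 2), Irx3 (128 ± 2.88), Irx2 (79.5 ± 4.94), Irx1 (59.1 ± 2.57), Irx6 (35.2 ± 0.454) and Irx4 (14.8 ± 0.676), with no overlap between neighbours. In ESC it was Irx5 (106 ± 4.21), Irx3 (77.0 ± 3.13), Irx2 (48.5 ± 8.83), Irx6 (35.8 ± 4.90), Irx4 (33.5 ± 9.05) and Irx1 (27.8 ± 2.26), where Irx6 overlapped Irx4 and Irx4 overlapped Irx1. Irx5 stood in the top 0.302% of windows for H3K4me3 in NPC and the top 9.63% in ESC. Irx4 was in the top 54.8% in NPC and 44.7% in ESC. Against IgG, H3K4me3 was called at Irx5 (2.89), Irx3 (2.69), Irx1 (2.51) and Irx2 (2.48) in NPC (background 38.9%), and at Irx5 (1.92) and Irx3 (1.78) in ESC (background 36.0%). The ESC calls were lost with either H3K4me3 library left out.

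**Figure D2:**
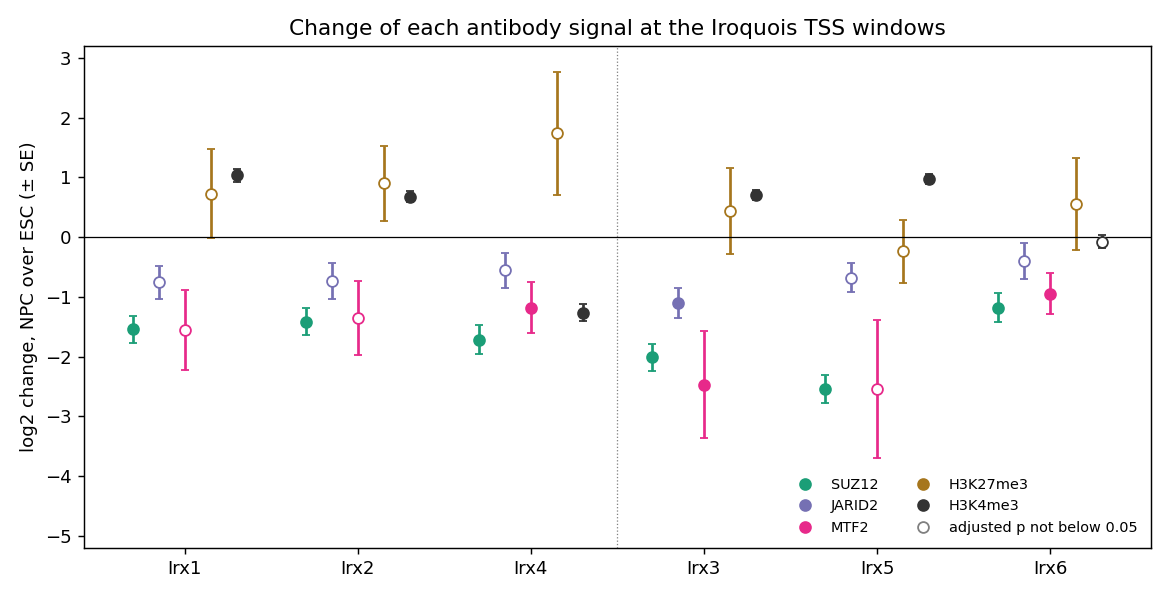
Log2 change of NPC over ESC (y axis, edgeR, bars are SE) at each Iroquois gene for the 5 antibodies, with filled points where the adjusted p was below 0.05. SUZ12 is below 0 at all 6 (-1.18 at Irx6 to -2.54 at Irx5), and H3K4me3 is above 0 at Irx1, Irx2, Irx3 and Irx5 and at -1.26 at Irx4.

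Taking H3K27me3 and H3K4me3 together, 3 members had both marks above IgG in NPC (Irx1, Irx2 and Irx3) and 2 had both in ESC (Irx3 and Irx5), in the fit of all 22 libraries. The H3K27me3 calls behind these counts went to 1 member per cell type in the fit with IgG only. Over all windows both marks were called at 4.05% in NPC and 2.29% in ESC. Irx5 in NPC and Irx4 in NPC stood at opposite ends, Irx5 with 213 ± 15.4 CPM of H3K4me3 and 82.1 ± 17.3 CPM of H3K27me3, and Irx4 with 14.8 ± 0.676 and 463 ± 164 CPM (SD, n = 2). Irx6 and Irx4 had H3K27me3 alone above IgG in both cell types. The difference between the changes of the 2 marks was tested as an interaction over 8 libraries, and 1 of 6 members was called, beside 34.8% of 23958 windows (17.4% above 0 and 17.4% below). At Irx4 the H3K4me3 change minus the H3K27me3 change was -2.77 ± 0.667 on the log2 scale (SE, adjusted p = 0.000330). At Irx5 it was 1.40 ± 0.661 (0.0854), and at the other 4 it lay between -0.42 at Irx6 and 0.51 at Irx1. The call at Irx4 was lost without ESC H3K4me3 replicate 1, and the count of calls moved without NPC H3K27me3 replicate 2. Each of these fits leaves 1 library in a group, and the share of all windows called in them was not taken.

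**Figure D3:**
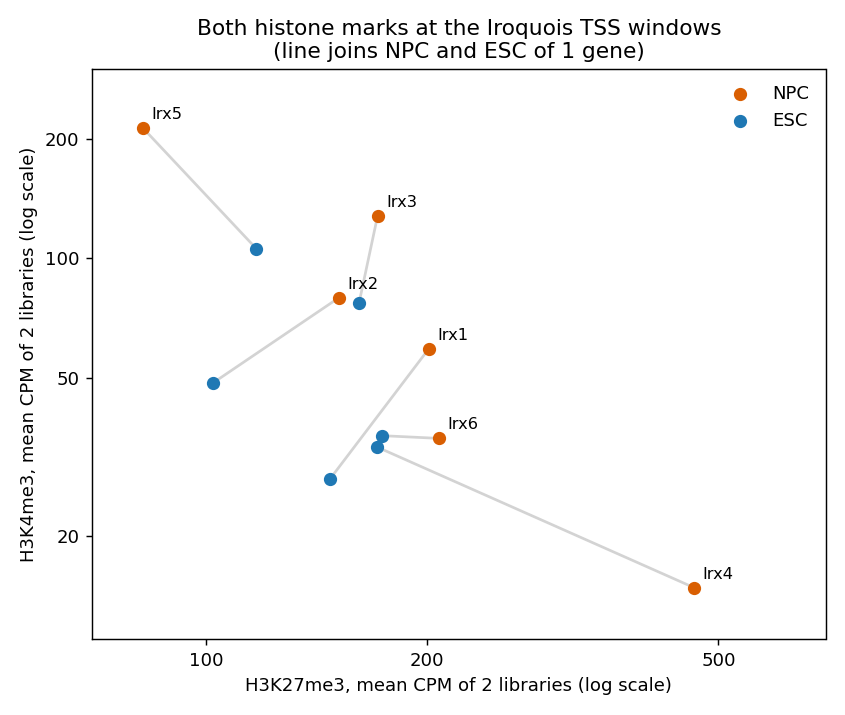
Mean CPM of H3K27me3 (x axis, log scale) and H3K4me3 (y axis, log scale) at each Iroquois gene, NPC in orange and ESC in blue (n = 2 libraries each), with a line joining the 2 cell types of a gene. Irx4 lies at 463 CPM of H3K27me3 and 14.8 CPM of H3K4me3 in NPC and at 171 and 33.5 CPM in ESC, and Irx5 lies at 82.1 and 213 CPM in NPC and at 117 and 106 CPM in ESC.

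The contrast between SUZ12 and H3K27me3 was tested in the same way. The H3K27me3 change was above the SUZ12 change at 5 of 6 members, where 16.7% of 23478 windows were above, 14.2% below and 30.9% differed in either direction. The difference was 3.45 ± 0.963 (SE) at Irx4 (adjusted p = 0.00352), 2.47 ± 0.886 at Irx3 (0.0238), 2.33 ± 0.786 at Irx2 (0.0163), 2.303 ± 0.883 at Irx5 (0.0345) and 2.27 ± 0.832 at Irx1 (0.0267), all on the log2 scale. Irx6 was at 1.73 ± 0.802 (0.0817). Over all the alternatives the difference stayed above 0 at each member, from 0.78 at Irx6 to 4.02 at Irx4, but the count of called members moved. It was 1 with scaling on background windows, and it moved in both directions when single libraries were left out, which leaves 1 library in a group. The share of all windows called was not taken in these alternative fits. A loss of calls at the members thus cannot be told apart from a loss at all windows.

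The 2 clusters differed in how the PRC2 signals were shared between them. CPM were summed over the 3 windows of each cluster, and the log2 ratio of Irx1/2/4 over Irx3/5/6 was taken in each library, with no test because members are not replicates. For SUZ12 it was -0.09 and -0.33 in NPC, against -0.76 and -0.88 in ESC. For MTF2 it was 0.11 and 0.10 in NPC and -0.73 and -0.91 in ESC, and for H3K27me3 0.89 and 0.78 in NPC and -0.10 and -0.11 in ESC. For these 3 antibodies both NPC libraries lay above both ESC libraries, so the share of the chromosome 13 cluster was larger in NPC than in ESC. For SUZ12 it remained the smaller of the 2 shares in NPC too. JARID2 had ratios of -0.46 and -0.32 in NPC and -0.46 and -0.52 in ESC. H3K4me3 was weighted to the chromosome 8 cluster throughout, at -1.35 and -1.23 in NPC and -0.87 and -1.14 in ESC. IgG itself stood at -0.74 in NPC and -0.18 in ESC, on 1 library each. NPC minus ESC, the mean ratio moved by 0.61 for SUZ12, 0.93 for MTF2, 0.94 for H3K27me3, 0.10 for JARID2 and -0.29 for H3K4me3. The clusters were not uniform inside. Irx4 carried 347 of 612 CPM and 579 of 1021 CPM of the H3K27me3 summed over its cluster in the NPC libraries and had the lowest H3K4me3 of the family there. In the chromosome 8 cluster Irx6 stood below Irx3 and Irx5 for SUZ12 and for H3K4me3 in both cell types.

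**Figure D4:**
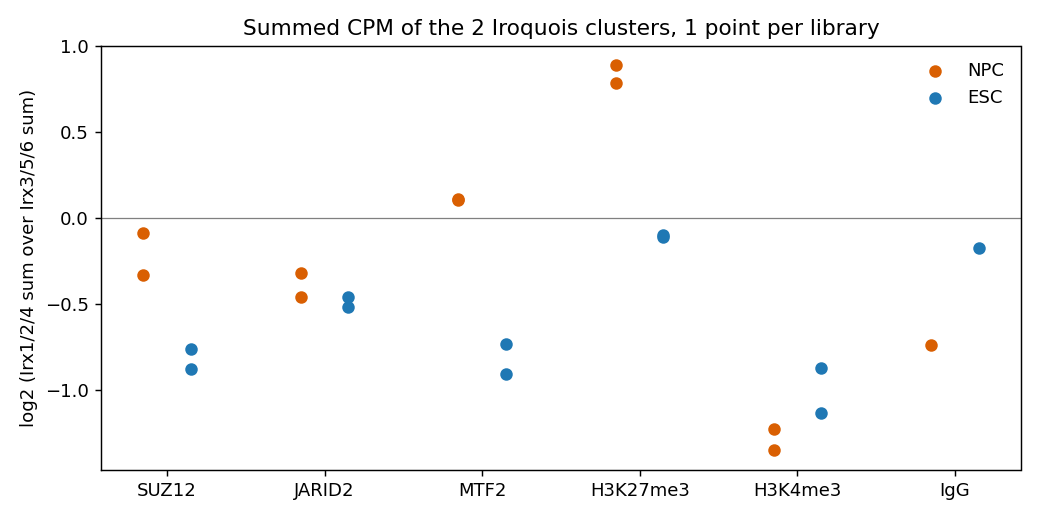
Log2 of the summed CPM of Irx1, Irx2 and Irx4 over that of Irx3, Irx5 and Irx6 (y axis) for each antibody and IgG (x axis), 1 point per library, NPC in orange and ESC in blue. H3K27me3 lies at 0.89 and 0.78 in NPC and at -0.10 and -0.11 in ESC, and H3K4me3 is below 0 in all 4 libraries.

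Within 1000 kb of each cluster there were 26 TSS windows around Irx1/2/4 and 21 around Irx3/5/6, members included. Ranked by SUZ12 level, the members and the windows overlapping them led both domains in both cell types. Irx2, Irx1 and Irx4 were at ranks 1, 2 and 4 of 26 in NPC and Irx1, Irx2 and Irx4 at ranks 1, 2 and 4 in ESC, the rank of 3 being Gm20554, which shares its reads with Irx2. Irx5, Irx3 and Irx6 were at ranks 1, 2 and 4 of 21 in NPC and at ranks 1, 3 and 4 in ESC, with Crnde between. For H3K27me3, Irx4, Irx1 and Irx2 were at ranks 1, 2 and 4 of 26 in NPC and at 3, 6 and 8 in ESC, where Slc9a3, a sodium-proton exchanger gene, was highest. Irx6, Irx3 and Irx5 were at ranks 1, 3 and 4 of 21 in NPC and 2, 3 and 4 in ESC, where Slc6a2, the noradrenaline transporter gene, was highest.

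Crnde aside, named genes next to the clusters, predicted and small RNA genes left out, moved less for SUZ12 than the members did. Their mean ESC levels ran only from 30.5 CPM (Ndufs6) to 72.2 CPM (Rpgrip1l), while the lowest member, Irx6, had 112 CPM. They thus had less SUZ12 signal to lose. Fto and Rpgrip1l, whose start sites are near each other and about 488 kb from Irx3, had SUZ12 changes of -0.74 ± 0.264 (SE, adjusted p = 0.0345) and -0.80 ± 0.261 (0.0179), and H3K4me3 rose by 0.36 at each. Fto encodes an RNA demethylase and Rpgrip1l a protein of the ciliary transition zone. On the other side Mmp2, a matrix metalloproteinase gene 153 kb from Irx6, fell in H3K27me3 by 1.47 ± 0.398 (0.00113), while Lpcat2 was called for no antibody. Next to the chromosome 13 cluster, Ndufs6 and Mrpl36, mitochondrial protein genes, fell in H3K4me3 by 0.36 and 0.50. On its other side, 1121.9 kb from Irx1, Adamts16, a metalloproteinase gene, fell in H3K27me3 by 1.53 ± 0.561 (0.0176) and rose in H3K4me3 by 0.91, and Ice1, a subunit gene of the little elongation complex at 1326.1 kb, rose in H3K27me3 by 1.17 ± 0.410 (0.0126) and in H3K4me3 by 0.35. Of these neighbours none other than Crnde, whose window is in part that of Irx5 (SUZ12 -2.52, H3K4me3 0.86), had a SUZ12 change as large as that of any member. Further off, but within 1000 kb of the chromosome 13 cluster, Tppp had a mean SUZ12 level of 150 CPM in ESC and 53.3 CPM in NPC. Irx4 had 156 and 56.9 CPM, so a fall of this size was not confined to the members.

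**Figure D5:**
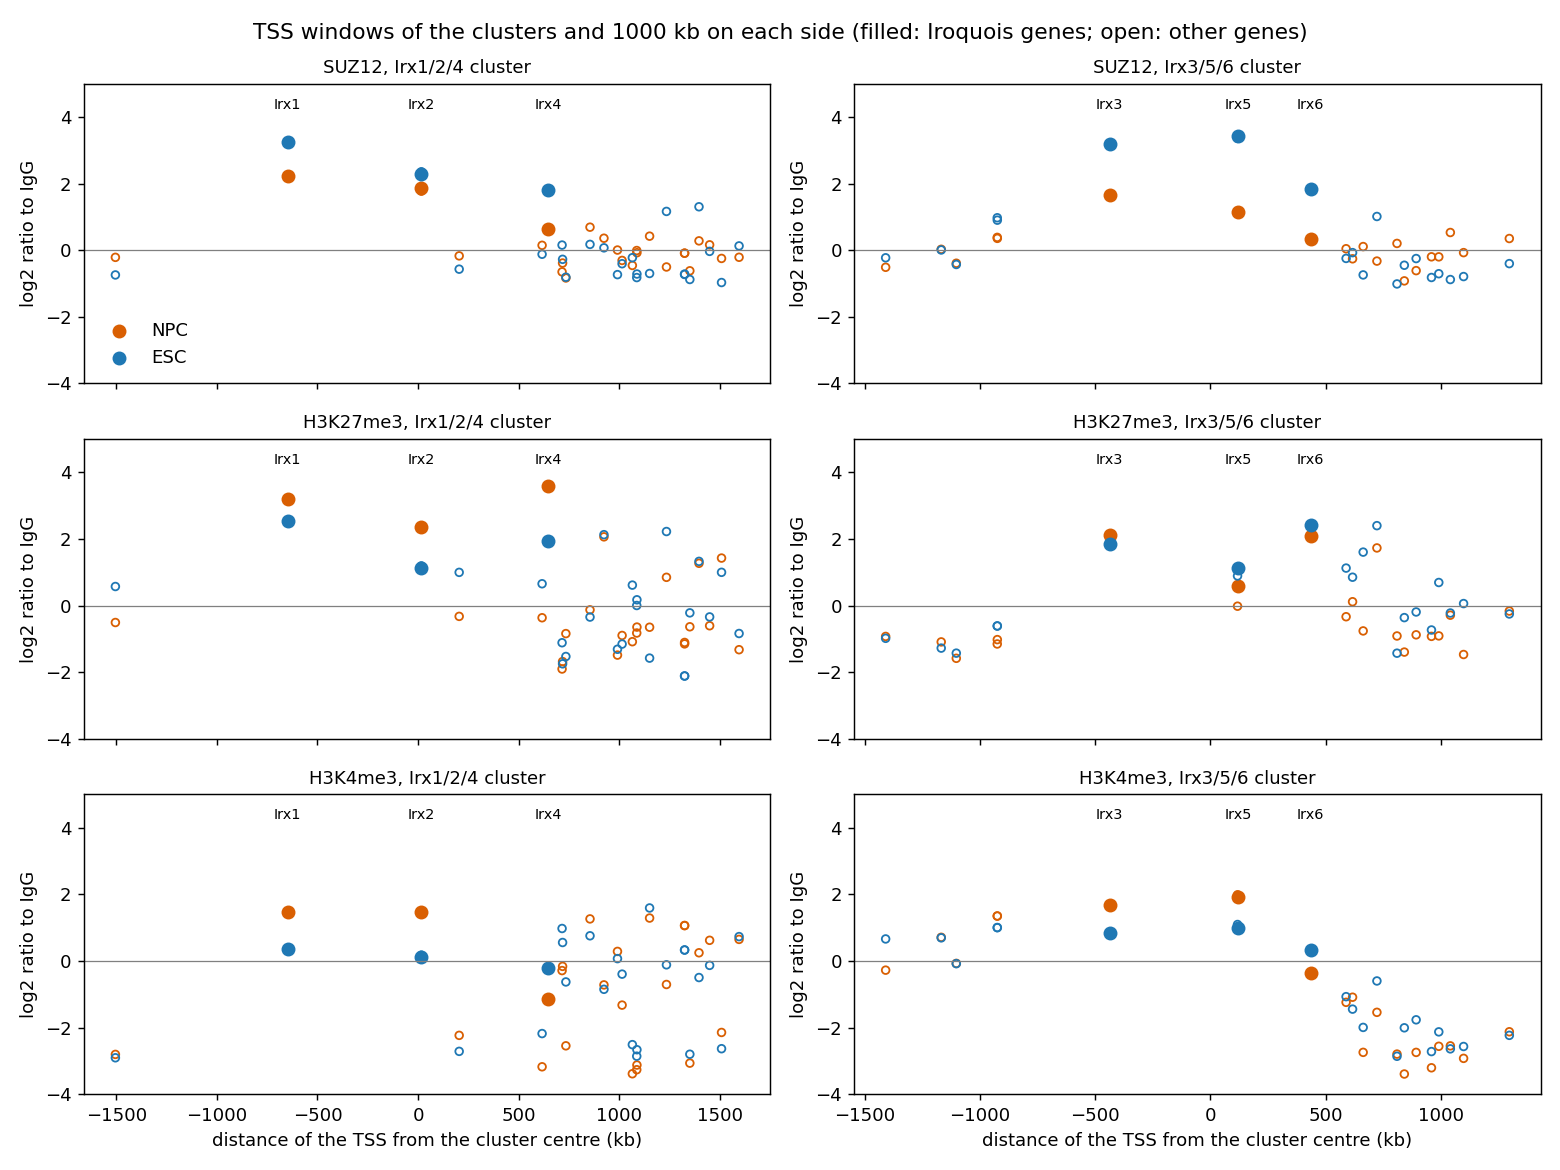
Log2 ratio to IgG (mean CPM, prior count of 2; y axis) of TSS windows against their distance from the cluster centre in kb (x axis) for SUZ12, H3K27me3 and H3K4me3 around each cluster, NPC in orange and ESC in blue, Iroquois genes filled and other genes open. For SUZ12 the members stand lower in NPC, where Irx4 and Irx6 lie among the other genes, and above the other windows that do not overlap them in ESC.

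Also set beside the family were 3 groups of related genes, whose members were picked with earlier results of these data known. Of 11 progenitor domain factors of the neural tube, SUZ12 fell at 10 and rose at none (median -1.38). The largest falls were at Nkx6-1 (-2.47 ± 0.234, SE) and Nkx6-2 (-2.24 ± 0.231), ventral factors induced by Hedgehog signalling. H3K4me3 rose at 6 and fell at 4 of them, most at Nkx2-2 (2.90), also a ventral factor, and at Nkx6-1 (2.03). Among those that fell were Olig1 (-1.28) and the dorsal factor Pax3 (-0.66). H3K27me3 rose at 2 and fell at none, at Olig1 (4.52 ± 0.985) and at Olig2 (3.01 ± 1.10), the motor neuron progenitor factor that shares a boundary with Irx3. Of 12 other TALE genes, SUZ12 rose at 1 (Tgif1, 1.19) and fell at 6, most at Meis2 (-2.54) and Meis1 (-1.92), cofactors of Hox proteins. H3K4me3 rose at 9 of these 12, most at Meis1 (2.84), and fell at 2 (Tgif1, -0.34, and Pknox1, -0.26). H3K27me3 rose at 2 of 11 tested (Tgif1, 2.99, and Tgif2, 1.35) and fell at 4, most at Meis3 (-2.03). Of 9 Hedgehog response genes, H3K4me3 rose at 7, most at Gli1 (1.96), a direct target of the pathway, and Foxa2 (1.86), and fell at 1 (Gli2, -0.62). SUZ12 rose at 1 of the 9 (Gli2, 1.12) and fell at 2 (Foxa2, -1.97, and Shh, -1.45), and H3K27me3 rose at 3, most at Gli2 (3.98), and fell at Smo (-1.64) and Hhip (-1.01). All of these calls are edgeR's over all windows of the antibody, of which 2.97% rose and 13.1% fell for SUZ12, 22.9% and 23.5% for H3K27me3 and 26.7% and 29.2% for H3K4me3.

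The windows most like each cluster were taken by Pearson's r over the 20 antibody libraries, on log2 CPM centred within each antibody, among 15076 windows tested for all 5. They share libraries and depth, and r is given as a description. For Irx1/2/4 these were Sv2c (0.976), Onecut1 (0.974), Skor2 (0.973), Bcl11a (0.973) and Mdga1 (0.968), and for Irx3/5/6 Hmga2 (0.984), Pou3f3 (0.980), Pcdh7 (0.977), Inafm2 (0.976) and Tmem132e (0.975). Irx4 had an r of 0.574 to the mean of Irx3/5/6, against 0.927 for Irx1 and 0.920 for Irx2. To the mean of Irx1/2/4, of which they are part, Irx4 had 0.814, Irx1 0.913 and Irx2 0.958. To that same mean Irx3 had 0.894, Irx6 0.890 and Irx5 0.817, so the clusters were not set apart by r.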

How the data were processed

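The authors deposited 1 table of raw read counts per 5000 bp window, 1 window per TSS, not normalized. The build mm10, Bowtie2 2.3.4.3 and Picard 2.19 were used, per the submitters' processing notes, the last in a role not given in the sources used here, nor are the counting program and its filters. From these counts, changes were tested with edgeR 4.0.16 (limma 3.58.1, R 4.3.3) by glmQLFTest, per antibody over 4 libraries, with TMM factors and filterByExpr at a minimum count of 10. Interactions used 8 libraries and IgG contrasts all 22. P-values were adjusted over all windows by Benjamini-Hochberg, and calls made below 0.05. All 6 members passed every filter at that minimum. The series' design text calls the replicates biological, and nothing says whether they came from separate cultures, so p-values measure only the spread between these libraries, which may be technical. Of 24467 windows, 5370 overlapped another. Alternatives were library totals, TMM factors from background windows, no filter, a minimum count of 30, non-overlapping windows, DESeq2 1.42.0, a replicate block, each library left out, a log2 ratio to IgG of at least 2, 1 antibody with IgG only and the NPC JARID2 libraries summed, and a crossed replicate block, which was chosen after seeing the data. The tests were tried on simulated counts. Named genes are the 6 members, the neighbours between and next to them (2 named genes on each side), the 2 called genes of each list with the largest change in each direction, and the 5 windows of highest r; some genes that this rule names are not reported here. The members and lists were chosen with earlier results of these data known. Same-numbered libraries did not deviate together (r of -0.21 to 0.01 over windows, 2 pairs per antibody).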

Additional observations from a re-analysis of the deposited data

Results flagged for a closer look

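Results were marked where a test of the difference between antibodies passed. The H3K27me3 change exceeded the SUZ12 change, on the log2 scale, by 3.45 at Irx4, 2.47 at Irx3, 2.33 at Irx2, 2.303 at Irx5 and 2.27 at Irx1. At Irx4 the H3K4me3 change minus the H3K27me3 change was -2.77. Groups of 2 libraries are too small for a test of single outlying libraries.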

How the results depend on the processing

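Of 246 recomputed member counts, 200 stayed within 1.5 times the reported count. All 20 recomputed NPC minus ESC differences of the cluster ratio, each with 1 library left out, kept their sign. With 2 libraries per group such a shift cannot exceed the spread set as its limit, so its size was no test. Members lower for SUZ12 numbered 6 under the alternatives run, except 5 at a minimum count of 30 and 4 among non-overlapping windows, where 4 were tested, and of the JARID2 and MTF2 changes none was called higher under any. Depth limits IgG and JARID2 most, with as few as 6 counts in a member window for IgG and 15 for JARID2. Leaving out 1 library gave 0 to 1 members lower for JARID2, 0 to 4 lower for MTF2, 0 to 5 higher and 0 to 2 lower for H3K27me3, 0 to 2 called for JARID2 minus MTF2, 0 to 6 for H3K27me3 minus SUZ12 and 0 to 4 for H3K4me3 minus H3K27me3. Against IgG it gave 0 to 1 for MTF2 in NPC and 0 for H3K4me3 in ESC. For the JARID2, MTF2 and H3K27me3 changes, the share of all windows called differed between the fits with 1 library left out too. The causes were not tested.

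For MTF2 lower in NPC the count was 1 with no filter, 1 at a minimum count of 30, 5 with DESeq2 and 6 with the crossed block. The shares of all windows that fell in these fits were 7.71%, 9.68%, 28.8% and 14.8%. H3K27me3 higher in NPC gave 1 with library totals, 5 at a minimum count of 30 and 1 with DESeq2, where 7.67%, 28.0% and 8.46% of windows rose. H3K4me3 higher in NPC gave 2 among non-overlapping windows, where 4 members were tested and 25.8% of windows rose. H3K27me3 minus SUZ12 gave 1 with background factors and 3 with non-overlapping windows, and H3K4me3 minus H3K27me3 gave 2 with library totals and 2 with DESeq2. Against IgG in NPC, SUZ12 gave 2 with library totals and 3 when fitted with IgG only, MTF2 gave 2 with library totals, H3K27me3 gave 1 when fitted with IgG only and H3K4me3 gave 2 with non-overlapping windows. Against IgG in ESC, JARID2 gave 3 and H3K27me3 gave 1 when fitted with IgG only, and H3K4me3 gave 0 with library totals, 0 at a minimum count of 30, 0 at a log2 ratio of at least 2 and 4 when fitted with IgG only.

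With the replicate block, MTF2 lower in NPC gave 0 members, where 1.70% of all windows fell, beside 8.89% in the reported fit. H3K27me3 minus SUZ12 gave 2, and no other member count of the comparisons between cell types moved by more than 1.5 times. The labels give only a shared number, and same-numbered libraries did not deviate together.

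Signs turned at single members, none of them called in the reported fits. Under these alternatives only the H3K27me3 change at Irx3 without NPC replicate 2 was called. With background factors the H3K27me3 change became -0.086 at Irx3 and -0.020 at Irx6 and the H3K4me3 change 0.23 at Irx6. At a minimum count of 30 the H3K27me3 change became 0.38 at Irx5, and JARID2 minus MTF2 became -0.075 at Irx2, -0.079 at Irx4 and -0.17 at Irx6. H3K4me3 minus H3K27me3 at Irx2 became 0.069 with library totals and 0.10 with DESeq2. Without 1 library the H3K27me3 change ran from -0.15 to 1.21 at Irx1, -0.21 to 1.49 at Irx2, -0.87 to 1.10 at Irx3, -1.001 to 0.20 at Irx5 and -0.43 to 1.07 at Irx6, with NPC replicates 1 and 2 at the ends. The H3K4me3 change at Irx6 ran from -0.24 to 0.083. H3K4me3 minus H3K27me3 ran from -0.61 to 0.98 at Irx2, -0.20 to 1.65 at Irx3 and -0.95 to 0.44 at Irx6. DESeq2, background factors and the replicate block were not applied to the comparisons with IgG. For these comparisons, and for the differences between the changes of 2 antibodies, the share of all windows called was taken in the reported fit only.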
